A study of Mus musculus with 6 samples.

Results

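Prostanoids are short-lived lipid mediators made from arachidonic acid, and this account follows the genes that make them, break them down and bind them in mouse lung. The gene set holds 10 genes chosen by name, namely the cyclooxygenases Ptgs1 and Ptgs2, the terminal synthases Ptges, Ptgis, Tbxas1 and Hpgds, the degrading enzyme Hpgd, and the receptors Ptgir, Ptger2 and Ptger4. Of these, 9 genes were measured by 14 of the 45037 probe sets on the arrays. Ptgs1 had no probe set under its own symbol in the annotation used and was not analysed here.

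The IL13-transgenic group (TG) held 2 lungs of CC10-rtTA-IL13 mice, which express the type 2 cytokine IL13 when doxycycline is given, through an activator under control of the CC10 promoter, active in club cells of the airway. The wild-type group (WT) held 4 lungs without the transgene. All 6 animals were of the C57BL/6 strain, 6 to 10 weeks old, and all drank doxycycline at 2 mg/mL for 7 days, so the drug itself is common to both groups. RNA of the left upper lobe of each animal went onto its own Affymetrix array, and the labels call the samples biological replicates. The transgene acts from the airway epithelium in the model, and the whole lobe was measured.

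Values are log2 RMA values, a background-corrected and quantile-normalized summary of the probes in a probe set. They ran over 2.297 to 15.19, with array medians of 5.28 to 5.31 and lower quartiles of 3.75 to 3.84. A difference of 1 on this scale is a 2-fold change. The Il13 probe set read 4.24 and 4.09 in TG lungs and 3.72 to 4.03 in WT lungs, which missed the threshold (adjusted p = 0.11) and so gives no firm check of the labels. Markers of alveolar type II cells averaged 13.48 and 13.52 in TG lungs and 13.28 to 13.48 in WT lungs, and club cell markers were bright in both groups. Heart muscle markers were lower in both TG lungs than in any WT lung. They averaged 7.57 and 5.15 in TG replicates 1 and 2 and 8.32 to 10.59 in WT lungs, and 4 of 6 passed as lower. Adipose markers averaged 7.34 and 5.72 in TG lungs and 7.13 to 8.98 in WT lungs. In both lists TG replicate 2 was the lowest lung and WT replicate 4 the highest. Whether such tissue had a part in any difference below was not tested.

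As background, cyclooxygenases turn arachidonic acid, released from membranes by phospholipases, into an unstable endoperoxide, and each terminal synthase turns this into 1 product. Ptges makes prostaglandin E2, Ptgis prostacyclin, Tbxas1 thromboxane A2 and Hpgds prostaglandin D2. The lung clears much of the prostaglandin in blood, by uptake through the transporter Slco2a1 and oxidation by Hpgd, the 15-hydroxyprostaglandin dehydrogenase. The receptors Ptgir, Ptger2 and Ptger4 bind prostacyclin or prostaglandin E2 and raise cyclic AMP in the cell.

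The prostacyclin receptor gene Ptgir and the thromboxane synthase gene Tbxas1 rose most among the measured genes of the set, 12.8-fold and 6.2-fold in TG over WT lungs, and Ptges rose 2.21-fold. The degrading enzyme gene Hpgd was 2.7-fold lower in TG lungs and the prostacyclin synthase gene Ptgis 1.54-fold lower. Hpgds and Ptger4 rose by smaller amounts, and Ptgs2 and Ptger2 did not pass the test. In all, 5 of 9 genes passed as higher and 2 as lower at the threshold of 0.05 (limma, p adjusted over all 18193 genes), where 19.0% of all genes were called in either direction, 8.43% as higher and 10.5% as lower. The TG and WT values did not overlap for 7 of the 9 genes, against 41.7% of all genes. The median log2 difference was 0.56 over the 9 genes and 0.00 over all genes. The genes were chosen with earlier results of these arrays known, so these shares describe them and do not test the set.

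**Figure D1:**
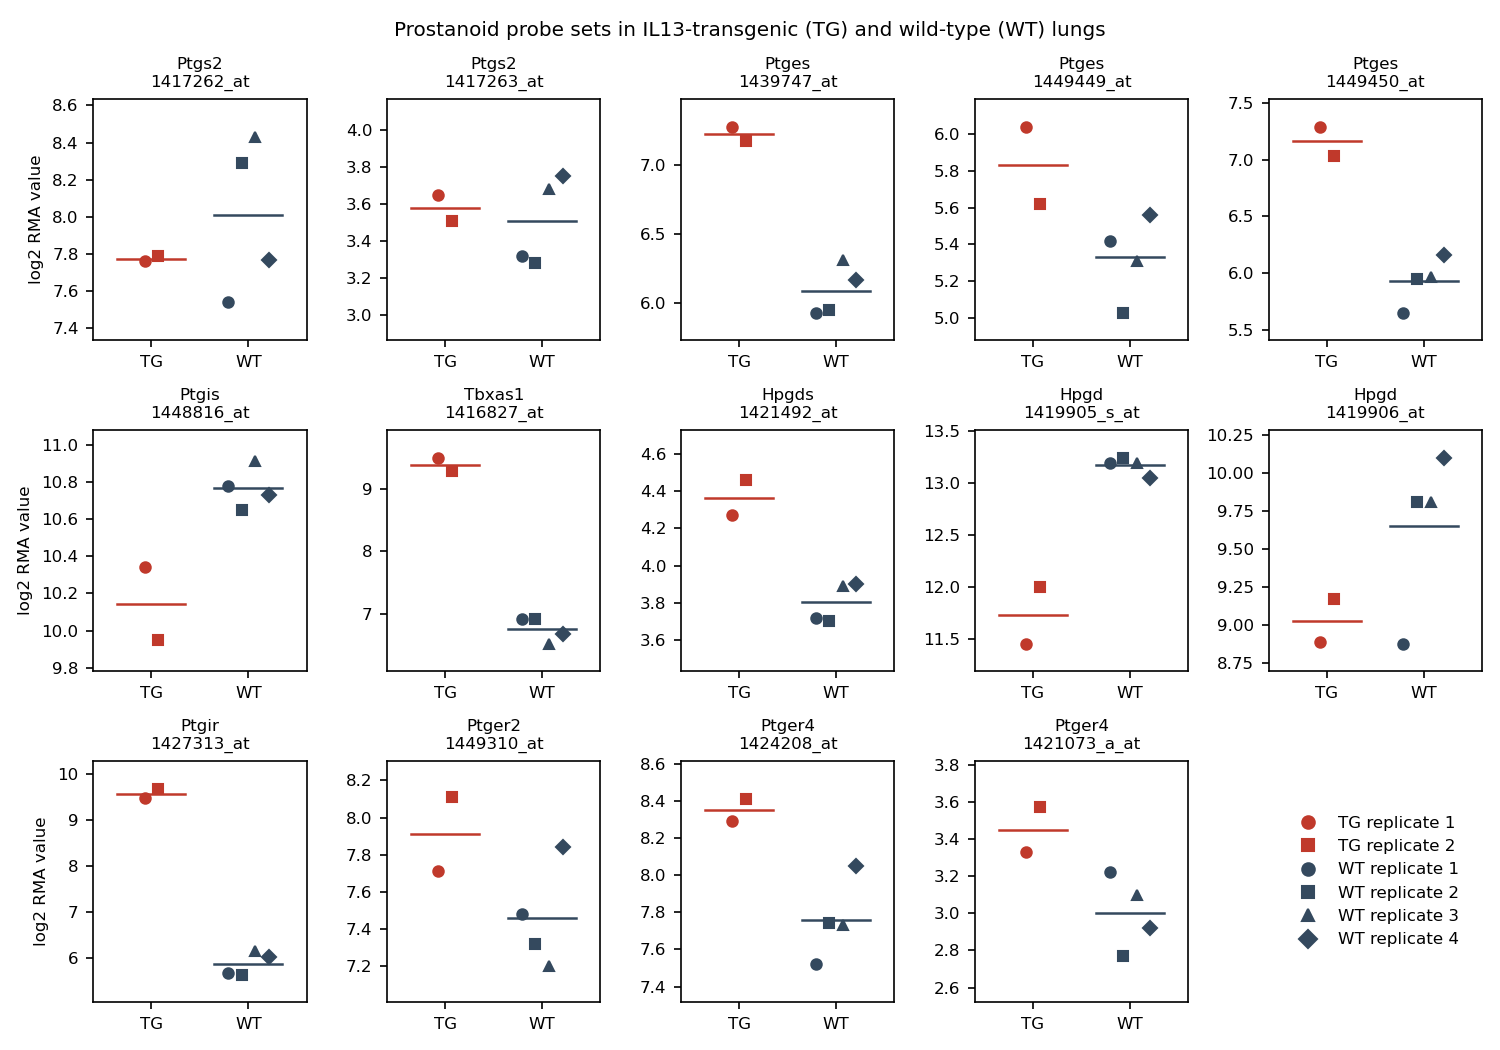
Log2 RMA values (vertical axis, its own range in each panel) of the 14 prostanoid probe sets in the 2 TG and 4 WT lungs. Each point is 1 array, with a symbol for each replicate, and the line is the group mean. Ptgir, Tbxas1 and 2 of 3 Ptges probe sets show wide gaps between the groups, with TG above WT, while both Ptgs2 probe sets overlap.

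Promoter windows are shown for the 4 genes whose call held in every alternative fit that could give a value. By the q-values that the authors deposited, none of these genes passed at 0.05. The windows are those of RefSeq (GRCm38.p6), 250 bases before and 50 bases from the start site on, and 9 of the 10 named genes had one, Ptgis being the exception. They were searched on both strands for TTC and GAA with 4 bases of any kind between them, the spacing bound by STAT6, the factor that IL13 signalling activates, for GAGGAAGT, a site of the myeloid factor PU.1, and for TATAAA. Capitals mark matches, and positions count from 1 at the start site, with negative numbers before it.
Ptgir (chr7:16906240-16906539, plus strand): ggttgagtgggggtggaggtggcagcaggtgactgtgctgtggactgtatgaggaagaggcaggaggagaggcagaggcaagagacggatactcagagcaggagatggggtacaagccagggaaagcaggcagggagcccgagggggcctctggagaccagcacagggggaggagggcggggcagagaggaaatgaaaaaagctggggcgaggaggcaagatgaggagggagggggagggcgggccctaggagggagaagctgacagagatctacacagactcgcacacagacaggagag
Tbxas1 (chr6:38918736-38919035, plus strand): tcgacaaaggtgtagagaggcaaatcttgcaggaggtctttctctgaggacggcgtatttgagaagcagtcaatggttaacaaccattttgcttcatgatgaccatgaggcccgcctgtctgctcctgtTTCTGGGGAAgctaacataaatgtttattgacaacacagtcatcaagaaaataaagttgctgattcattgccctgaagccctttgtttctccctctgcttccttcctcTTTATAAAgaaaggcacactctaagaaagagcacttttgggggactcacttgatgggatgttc
Ptges (chr2:30903248-30903547, minus strand): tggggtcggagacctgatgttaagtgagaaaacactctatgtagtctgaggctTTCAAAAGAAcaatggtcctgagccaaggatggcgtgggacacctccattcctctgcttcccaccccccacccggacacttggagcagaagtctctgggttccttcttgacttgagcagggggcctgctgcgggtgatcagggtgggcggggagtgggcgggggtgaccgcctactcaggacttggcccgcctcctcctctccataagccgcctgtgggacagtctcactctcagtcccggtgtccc
Hpgd (chr8:56294302-56294601, plus strand): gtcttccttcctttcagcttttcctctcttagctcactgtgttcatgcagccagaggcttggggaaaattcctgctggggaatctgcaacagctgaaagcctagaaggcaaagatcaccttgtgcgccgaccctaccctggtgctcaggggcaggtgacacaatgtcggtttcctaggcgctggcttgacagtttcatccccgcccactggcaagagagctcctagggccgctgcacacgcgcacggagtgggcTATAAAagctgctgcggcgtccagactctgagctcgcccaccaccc

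The Ptgir window, of the gene that rose most in the set, held no match of the 3 motifs. The Tbxas1 window held the STAT6 spacing as TTCTGGGGAA at position -121, and TATAAA on both strands in 1 overlapping stretch starting at -13. The Ptges window held the STAT6 spacing as TTCAAAAGAA at position -197, and the Hpgd window held TATAAA at position 5. Among all 32851 windows of this length, 6.95% held the STAT6 spacing, 3.20% the PU.1 site and 13.6% TATAAA. Each of the 3 motifs was found in 2 of the 9 windows of the set, with the PU.1 site in those of Ptgs1 at position -24 and Hpgds at -49, and the windows of Ptgs2, Ptger2 and Ptger4 held none. These are matches of letters, and no binding was measured.

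The inducible cyclooxygenase gene Ptgs2, which inflammatory signals switch on in many cells, was not called. Its brighter probe set, 1417262_at, read 7.76 and 7.79 in TG lungs and 7.54, 8.29, 8.43 and 7.77 in WT lungs. The TG values lie inside the WT range, whose spread is 0.42 (SD, n = 4). The difference was -0.24 ± 0.24 (moderated SE of limma, n = 2 and 4, adjusted p = 0.55), and its 95% interval of -0.79 to 0.32 leaves room for changes in either direction. The second probe set, 1417263_at, read 3.65 and 3.51 in TG lungs and 3.28 to 3.75 in WT lungs, at or below the lower quartile of the arrays, where a change would be hard to see.

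Ptges, the microsomal prostaglandin E synthase that often works with Ptgs2, rose. Probe set 1439747_at read 7.28 and 7.18 in TG lungs and 5.93, 5.95, 6.31 and 6.17 in WT lungs. Both TG lungs lay above all WT lungs, and the gap between the groups exceeded the spread within each. The difference was 1.14 ± 0.14 (adjusted p = 0.0010), a 2.21-fold rise with a 95% interval of 1.77 to 2.75. Probe set 1449450_at gave 1.23 ± 0.16 (adjusted p = 0.0019 over all probe sets). The third, 1449449_at, read 6.04 and 5.62 in TG lungs and 5.03 to 5.56 in WT lungs, and its difference of 0.50 ± 0.18 missed the threshold (adjusted p = 0.12).

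Tbxas1 encodes thromboxane synthase, an enzyme of platelets and macrophages whose product constricts airways and vessels. It read 9.50 and 9.28 in TG lungs and 6.92, 6.92, 6.52 and 6.67 in WT lungs. The groups stood far apart, and the gap was several times the spread within either group. The rise was 2.63 ± 0.15 (adjusted p = 1.6e-05), or 6.2-fold with a 95% interval of 4.9 to 7.85. It ranked 98 among 18193 genes by size of rise.

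Macrophage markers were higher in the same lungs, and no platelet marker passed as higher. Of 8 macrophage markers 7 were higher in TG lungs and 1 did not pass, with list means of 10.82 and 10.85 in TG lungs and 8.45 to 8.63 in WT lungs. The 1 that did not pass was Csf1r, at 11.29 and 11.49 in TG lungs and 11.03 to 11.21 in WT lungs (0.31 ± 0.11, adjusted p = 0.099). Of 5 measured megakaryocyte and platelet markers 0 were higher, 1 was lower and 4 did not pass, with means of 6.70 and 6.93 in TG lungs and 6.84 to 7.33 in WT lungs. In whole lung, more cells of a type and more RNA per cell cannot be told apart, and the part of macrophage number in any of these differences was not tested.

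Ptgis, the prostacyclin synthase of endothelium and smooth muscle, was lower. It read 10.34 and 9.95 in TG lungs and 10.78, 10.65, 10.91 and 10.73 in WT lungs. The groups did not overlap, but the TG replicates differed by more than the WT lungs did among themselves. The difference was -0.62 ± 0.14 (adjusted p = 0.017), and without TG replicate 2 it shrank to -0.42. Of 8 endothelial markers 4 were lower and 0 higher, with means of 8.70 and 8.86 in TG lungs and 9.15 to 9.87 in WT lungs. Of 6 smooth muscle markers 5 were lower and 0 higher, with means of 7.56 and 7.73 in TG lungs and 8.27 to 8.93 in WT lungs. The part of these cells in the Ptgis difference was not tested.

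Hpgds, the haematopoietic prostaglandin D synthase of mast cells, T helper cells and some macrophages, had a weak signal. It read 4.27 and 4.46 in TG lungs and 3.72, 3.70, 3.89 and 3.90 in WT lungs. The WT values lie near the lower quartile of the arrays. The groups did not overlap, and the difference was 0.56 ± 0.12 (adjusted p = 0.014). The call ended without TG replicate 1 (0.66, adjusted p = 0.052) and without TG replicate 2 (0.46, adjusted p = 0.12). Mast cell markers gave no common direction, with 1 of 8 up, 1 down and 6 short of the threshold, and list means of 5.41 and 5.31 in TG lungs and 5.13 to 5.47 in WT lungs. The higher one was Hdc, the histamine-forming enzyme gene, and the lower one the receptor gene Kit. Macrophage markers were higher, as given above, and no T cell marker passed as higher. Whether any of these cells had a part in the Hpgds difference was not tested.

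Hpgd, which inactivates prostaglandins by oxidizing them, was lower in TG lungs. Probe set 1419905_s_at read 11.46 and 12.00 in TG lungs and 13.19, 13.24, 13.19 and 13.05 in WT lungs. Both TG lungs lay more than 1 unit below every WT lung, and the WT values were tight (SD 0.08, n = 4). The difference was -1.43 ± 0.16 (adjusted p = 0.00065), or 2.7-fold lower with a 95% interval of 2.1 to 3.47. It ranked 101 among 18193 genes by size of fall. The suffix _s_at marks a probe set whose probes may bind more than 1 transcript.

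The second Hpgd probe set, 1419906_at, gave a less clear picture. It read 8.89 and 9.17 in TG lungs and 8.88, 9.81, 9.81 and 10.10 in WT lungs. WT replicate 1 lay just below both TG lungs here, although it read like the other WT lungs on the first probe set. The difference of -0.62 ± 0.30 did not pass (adjusted p = 0.24), and without WT replicate 1 it was -0.87 and passed (adjusted p = 0.018). Markers of some lung epithelial cells also moved. Of 6 alveolar type I markers 4 were lower and 0 higher, and of 5 club cell markers 4 were lower and 0 higher, with club cell means of 12.33 and 12.82 in TG lungs and 13.85 to 14.18 in WT lungs. Of 5 alveolar type II markers 0 were higher and 0 lower. The part of any of these cells in the Hpgd difference was not tested.

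Among the receptors, Ptgir had the largest difference of the set. Ptgir, the prostacyclin receptor of platelets, smooth muscle and leukocytes, read 9.46 and 9.67 in TG lungs and 5.68, 5.65, 6.16 and 6.04 in WT lungs. The lowest TG lung lay above the highest WT lung by far more than the spread within either group. The rise was 3.68 ± 0.17 (adjusted p = 6.9e-06), or 12.8-fold with a 95% interval of 9.78 to 16.8. It ranked 32 among 18193 genes by size of rise. Its single probe set leaves no second reading on the array. The macrophage markers given above moved the same way. Of 6 smooth muscle markers 5 were lower, and no platelet, neutrophil or T cell marker passed as higher. The part of any of these cells in the Ptgir difference was not tested.

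The prostaglandin E2 receptors had smaller differences than Ptgir. Ptger4, the EP4 receptor of macrophages and lymphocytes, read 8.29 and 8.41 in TG lungs and 7.52, 7.74, 7.73 and 8.05 in WT lungs on probe set 1424208_at. The groups did not overlap, though WT replicate 4 came close to TG replicate 1. The difference was 0.59 ± 0.15 (adjusted p = 0.028), or 1.51-fold, and it did not pass without either TG replicate or without WT replicate 1 or 3 (adjusted p of 0.06 to 0.16). The second probe set, 1421073_a_at, read 3.33 and 3.57 in TG lungs and 2.77 to 3.22 in WT lungs, below the lower quartile, and did not pass (0.45 ± 0.15, adjusted p = 0.10).

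Ptger2, the EP2 receptor gene, read 7.71 and 8.11 in TG lungs and 7.48, 7.32, 7.20 and 7.84 in WT lungs. TG replicate 1 lay below WT replicate 4, so the groups overlapped. The difference was 0.45 ± 0.19 (adjusted p = 0.15), with a 95% interval of 0.01 to 0.89. Without WT replicate 4 it was 0.58 and passed over all genes (adjusted p = 0.038) but not over all probe sets (adjusted p = 0.056).

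**Figure D2:**
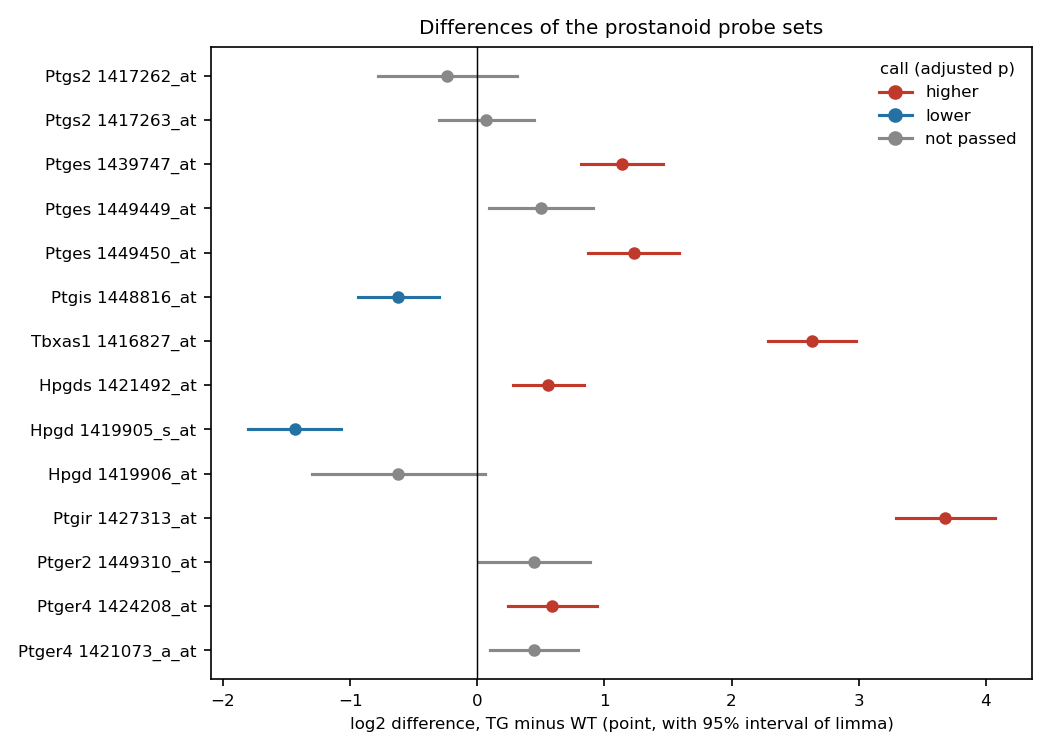
Log2 difference (TG minus WT, horizontal axis) of each prostanoid probe set, with its 95% interval from limma; colour gives the call over all probe sets. Ptgir at 3.68 and Tbxas1 at 2.63 lie far to the right, and the 2 Hpgd probe sets lie at -1.43 and -0.62.

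Counted by probe set, 6 of 14 passed as higher and 2 as lower, where 11.4% of all 45037 probe sets were called, 5.39% as higher and 5.99% as lower. The groups did not overlap for 10 of 14 probe sets, against 34.7% of all probe sets. Since there are only 15 ways to split 6 arrays into 2 and 4, an exact permutation test of 1 gene on the absolute difference in means cannot go below p = 0.0667. In the authors' deposited table, none (0) of the 14 probe sets had a q-value under 0.05, a level that 1.88% of all probe sets reached there, and the lowest was 0.0516 for Ptges (1439747_at). With limma, 11 of the 14 had an unadjusted p under 0.05, against 25.2% of all probe sets.

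**Figure D3:**
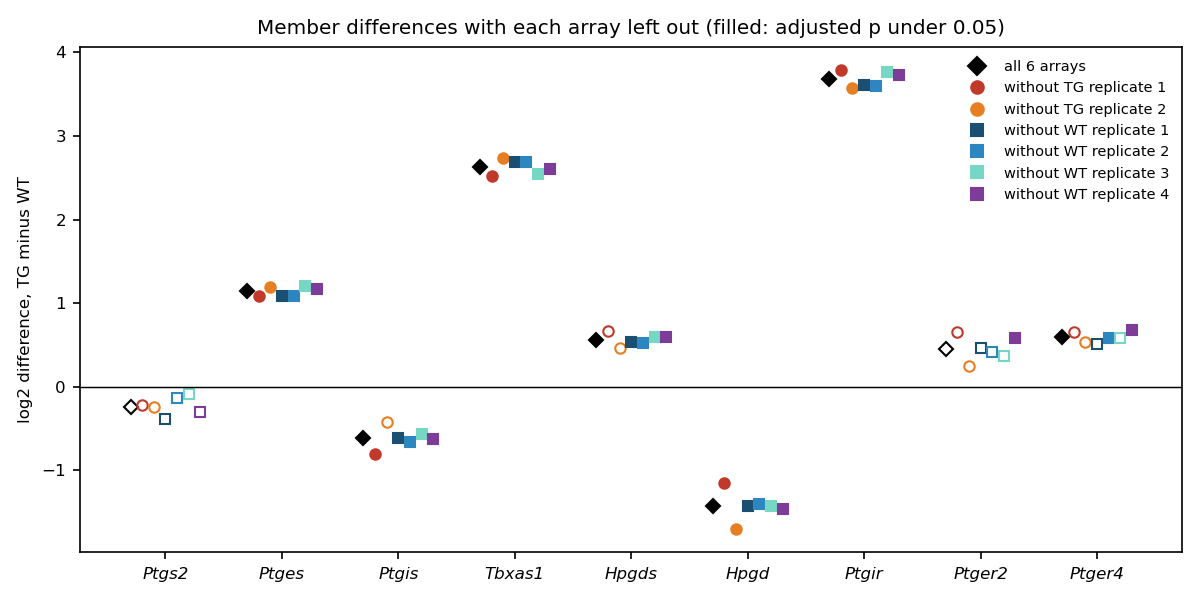
Log2 difference (TG minus WT, vertical axis) of the 9 genes with all 6 arrays and with each array left out in turn; filled symbols passed at an adjusted p under 0.05. Ptgir, Tbxas1, Ptges and Hpgd stay filled throughout, while Hpgds, Ptger4 and Ptgis have open symbols when single arrays are removed.

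With each array left out, Ptgir stayed at 3.58 to 3.79, Tbxas1 at 2.52 to 2.74, Ptges at 1.09 to 1.21 and Hpgd at -1.71 to -1.16, and all 4 passed each time. The count of called genes was lowest, at 4 of 9, without TG replicate 2, when Ptgis, Hpgds and Ptger4 no longer passed.

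Other genes of the pathway were taken from lists written with earlier results of these arrays known. Of 29 listed genes, 25 were measured, and Ptges3, Akr1b3, Ptgr3 and Pla2g4b were not analysed here. Of the 25 genes 2 were higher, 3 lower and 20 not passed, so 20.0% were called, a share near the 19.0% of all genes. Those that did not pass had differences of -0.85 to 0.55.

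Upstream of the cyclooxygenases, 2 phospholipase genes rose by the probe set read for each gene. Pla2g4a, the cytosolic phospholipase that releases arachidonic acid, read 8.99 and 8.55 in TG lungs and 7.62, 7.58, 7.74 and 8.14 in WT lungs, with no overlap (1.0 ± 0.19, adjusted p = 0.0083). It did not pass without TG replicate 1 (0.78, adjusted p = 0.094). Pla2g2d, a secreted phospholipase of dendritic cells and macrophages, read 6.46 and 6.60 in TG lungs and 5.43, 5.45, 5.50 and 5.68 in WT lungs (1.01 ± 0.12, adjusted p = 0.00087), and both of its probe sets passed. In the list of release and transport genes, 2 of 10 were higher, 1 lower and 7 not passed. Among the genes outside the set that did not pass, 2 single probe sets did, named here after their values were seen. The phospholipase gene Pla2g4c was higher on 1436712_at, at 3.82 and 4.53 in TG lungs and 3.07 to 3.46 in WT lungs (0.87 ± 0.20, adjusted p = 0.027 over all probe sets). These WT values lay below the lower quartile of the arrays, and TG replicate 1 lay near it. The other Pla2g4c probe set, which was read for the gene, did not pass (0.23 ± 0.14, adjusted p = 0.34). Ptgr2, a prostaglandin reductase gene, was lower on 1453156_s_at, at 6.65 and 6.57 in TG lungs and 7.07 to 7.29 in WT lungs (-0.56 ± 0.11, adjusted p = 0.017), 1 of its 6 probe sets.

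Slco2a1, the transporter that brings prostaglandins into cells for breakdown by Hpgd, was lower. It read 10.82 and 10.63 in TG lungs and 11.28, 11.18, 11.40 and 11.20 in WT lungs. The difference was -0.54 ± 0.12 (adjusted p = 0.015), 3 of its 4 probe sets passed as lower, and all 4 gave -0.56 to -0.54. The gene did not pass without TG replicate 1 (-0.63, adjusted p = 0.053) or TG replicate 2 (-0.44, adjusted p = 0.12). It is a gene of lung endothelium, of whose 8 markers 4 were lower and 4 did not pass. The part of endothelium in the Slco2a1 difference was not tested.

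Of the other enzymes, 0 of 9 were higher, 1 was lower and 8 did not pass. The lower one was Cbr2, a carbonyl reductase abundant in lung, at 12.77 and 13.31 in TG lungs and 14.32, 14.58, 14.20 and 13.96 in WT lungs (-1.23 ± 0.20, adjusted p = 0.0045). It did not pass without TG replicate 1 (-0.96, adjusted p = 0.055). Club cell markers fell in the same lungs, as given beside Hpgd, and their part in the Cbr2 difference was not tested.

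Of the other receptors, 0 of 6 were higher, 1 was lower and 5 did not pass. The lower one was Ptgfr, the prostaglandin F receptor of smooth muscle and fibroblasts, at 5.26 and 4.80 in TG lungs and 6.31, 6.13, 6.16 and 6.75 in WT lungs (-1.30 ± 0.20, adjusted p = 0.0036). Of its 5 probe sets 2 passed as lower, with differences of -1.30 to -0.11 over all 5. Smooth muscle markers were lower as given beside Ptgis, and of 6 fibroblast markers 2 were lower and 0 higher. The part of these cells in the Ptgfr difference was not tested.

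**Figure D4:**
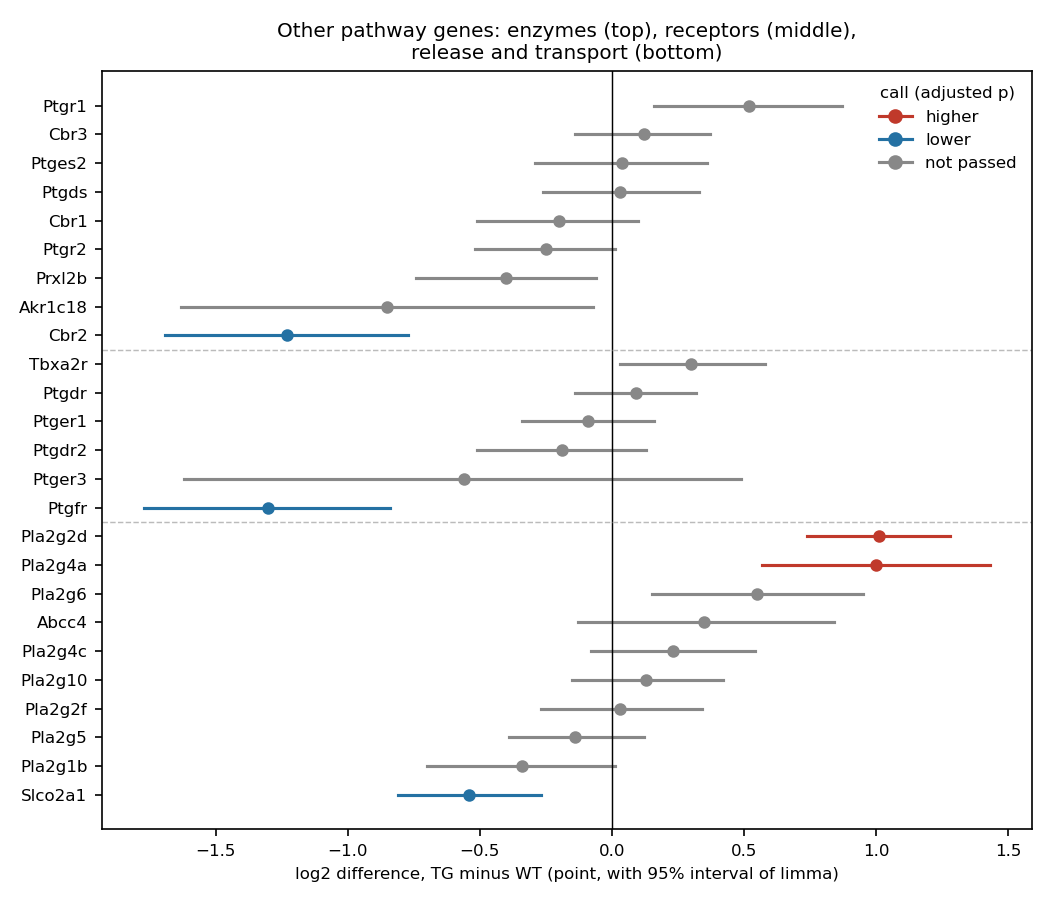
Log2 difference (TG minus WT, horizontal axis) with its 95% interval for the 25 measured pathway genes outside the set, grouped into enzymes, receptors, and release and transport, with colour for the call over all genes. Pla2g2d and Pla2g4a lie near 1, and Ptgfr at -1.30 and Cbr2 at -1.23 lie lowest.

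Each marker list holds a few chosen genes, which did not always move alike within a list. Neutrophil markers (0 of 4 higher, 0 lower) and T cell markers (0 of 5 higher, 0 lower) had overlapping list means in both groups. RMA values have no 0, and the dimmest single marker, Ms4a2 of mast cells, averaged 3.54 over the 6 arrays.

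**Figure D5:**
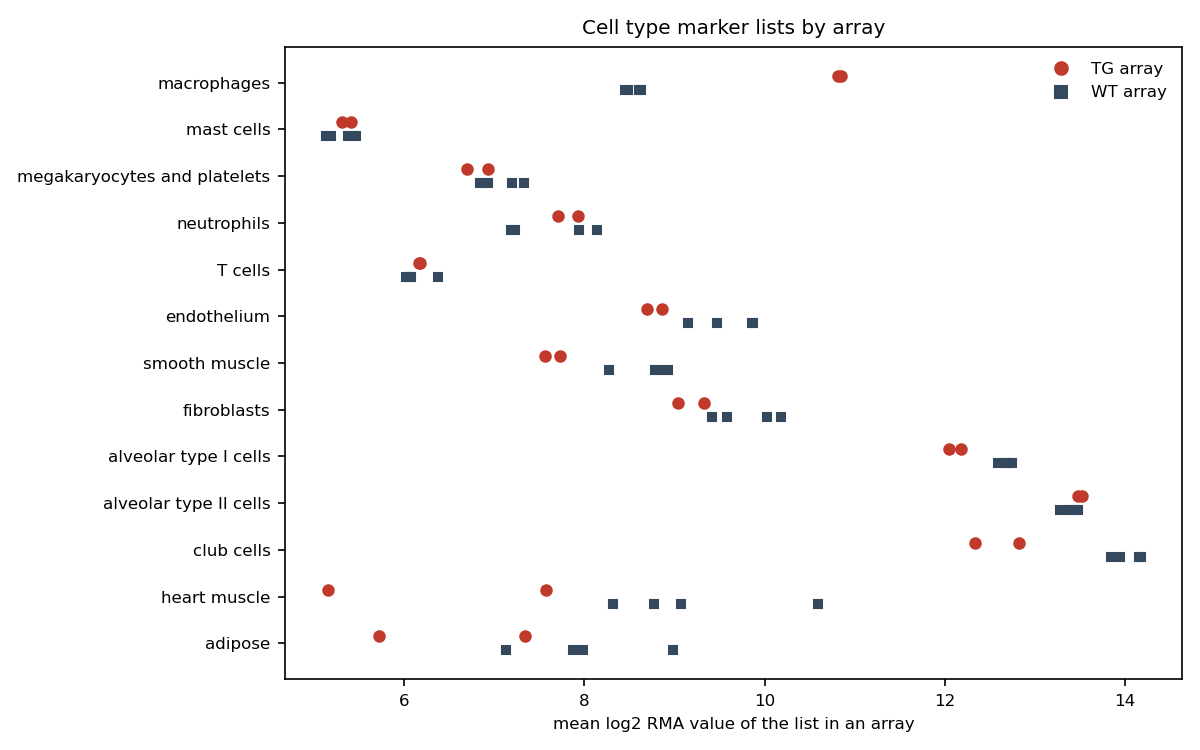
Mean log2 RMA value (horizontal axis) of 13 cell type marker lists in each array, with TG arrays as circles and WT arrays as squares. Macrophage means are 10.82 and 10.85 in TG lungs and 8.45 to 8.63 in WT lungs. Both TG lungs lie below all WT lungs for endothelium, smooth muscle, fibroblasts, alveolar type I cells, club cells and heart muscle.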

How the data were processed

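Lung RNA of 2 transgenic and 4 wild-type mice was profiled on Affymetrix arrays. The deposited values are log2 values made by RMA, per the submitters' processing notes, with no version stated. A second deposited table holds a log2 fold change and a q-value per probe set, per the file headers, by a test not given in the sources used here. Its 6 columns of single arrays match no sample label and were not used.

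Of 45037 probe sets 34945 had a single gene symbol, 932 several and 9160 none, and 34741 of those with 1 symbol were matched by gene ID to RefSeq (GRCm38.p6), whose symbol was then used. Each of 18193 genes was read from its brightest probe set. Transgenic minus wild-type differences were fitted with limma 3.58.1 in R 4.3.3 (lmFit, eBayes) over all genes and, apart, over all probe sets, with Benjamini-Hochberg adjustment and a threshold of 0.05. Adjusted p-values of single genes are those over all genes, and those of further probe sets are over all probe sets. The fit was tested on simulated data. The small number of arrays limits the precision.

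The members, lists and tests were chosen with earlier results of these data known. The text names every member and, of each pathway list, up to 5 called genes. Alternatives were filters on low values, other normalizations and moderations, weights per array, other choices of probe set, a block for the replicate number, and fits without single arrays. Plots used matplotlib 3.10.9 (Python 3.11.15).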

Additional observations from a re-analysis of the deposited data

How the results depend on the processing

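Ptgir, Tbxas1, Ptges and Hpgd kept their direction and their call in every alternative fit that could give a value, and Ptgs2 stayed uncalled in each. Ptges was left out by the filter at the median expression and Hpgds by both filters on low values. Without moderation of the variance 4 of 9 prostanoid genes passed, 1 of 25 other pathway genes and 1528 of all genes, against 3448 with it; Ptgis (-0.62, adjusted p = 0.084), Hpgds (0.56, 0.057) and Ptger4 (0.59, 0.12) were lost. By the authors' deposited q-value 0 of the 14 probe sets passed. With each array left out, the called prostanoid genes numbered 4 to 8, their probe sets 5 to 8, other pathway genes 2 to 8 and all genes 1311 to 3558, and the differences ran over -0.81 to -0.42 for Ptgis, 0.46 to 0.66 for Hpgds, 0.25 to 0.65 for Ptger2 and 0.51 to 0.68 for Ptger4; the cause was not tested. The fewest other pathway genes (2) passed without TG replicate 1 and the most (8) without WT replicate 2. The TG and WT samples share replicate numbers 1 and 2 without a stated pairing. Deviations of same-numbered arrays from their group means correlated at -0.08 and 0.27 over genes. With only 2 TG arrays their deviations mirror each other, so these values cannot settle whether the numbers pair the arrays. With the replicate number as a block 7 prostanoid genes, 9 of their probe sets, 7 other pathway genes and 3759 of all genes passed, and no call of a prostanoid gene changed.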

Other observations

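The order of the authors' q-values differed from the order of the differences. In the authors' deposited table Ptgir had the largest log2 fold change of the set, 3.68, with a q-value of 0.166, whereas Ptges (1439747_at), at 1.14, had 0.0516 and Ptger4 (1424208_at), at 0.59, had 0.0909. How the q-values were computed is not stated there.

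Hdc, the gene of the enzyme that forms histamine, read 9.97 and 9.63 in TG lungs and 7.80, 8.62, 8.10 and 8.08 in WT lungs (1.65 ± 0.21, adjusted p = 0.0015 in limma). None of the listed mast cell protease genes passed, and their directions were mixed. Cpa3, Mcpt4 and Cma1 had differences of -0.28, -0.18 and -0.43, and Tpsb2 and Tpsab1 had 0.34 and 0.15.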
